A study of Homo sapiens with 8 samples.

Results

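The core genes of the circadian clock were examined in CFPAC-1, an established human cell line from a pancreatic ductal adenocarcinoma. The genes were PER1, PER2, PER3, CRY1, CRY2, NR1D1, NR1D2, DBP, TEF and CLOCK. Of these 10 genes, 9 were found by their symbol among the 58870 genes of the deposited table. PER1 was found by its Ensembl identifier, ENSG00000179094.16, a row that carries the symbol AC129492.1 in the table but is PER1 in GENCODE release 44. Bulk RNA sequencing compared 4 samples with an empty vector and 4 samples with an ADRA2A transgene, and all 8 were otherwise untreated and grown for 72 hours. The product of ADRA2A is the alpha-2A adrenergic receptor, which couples to Gi and so lowers cyclic AMP. The labels name neither the promoter of the transgene nor whether each group is 1 clone or a pool, and do not say that replicates are separate cultures. The p-values below therefore measure only the spread between these samples, which may be technical.

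The circadian clock is a feedback loop of transcription. CLOCK and its partner BMAL1 bind E-box elements and switch on the PER and CRY genes, whose proteins return to the nucleus and repress CLOCK and BMAL1. A second loop runs through the nuclear receptors REV-ERB alpha (NR1D1) and REV-ERB beta (NR1D2), which repress BMAL1 at elements that the ROR receptors use to activate it. DBP and TEF are PAR bZIP factors that carry the rhythm to other genes through D-box elements. CLOCK is thus an activator, and the other members are repressors or outputs. Cultured cells that have not been synchronized drift out of phase with each other. The labels give no hour of harvest, so a change in mean level and a shift in clock phase cannot be told apart, nor can fewer cells expressing a gene and less RNA per cell.

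Library totals lay between 14427040 and 17528910 estimated counts, and the first principal component separated the groups. ADRA2A had 0 counts in all empty-vector libraries and between 112 and 172 counts in the ADRA2A libraries. Of 8 ductal epithelial markers, 7 were above a CPM (counts scaled to library size) of 1, and CFTR, the eighth, had between 4 and 20 counts per library. Each of the lists of other cell types held 4 markers. The islet markers INS, GCG, SST and CHGA were at 0 counts throughout, and the summed acinar markers reached at most 0.316 CPM. The leukocyte, endothelial and fibroblast lists each had 1 marker above a mean of 1 CPM over the libraries, and of their other members CD3E was at 0 throughout. The summed leukocyte markers lay between 1.56 and 1.90 CPM with the empty vector and between 1.72 and 2.53 CPM with ADRA2A, most of it CD14. The summed endothelial markers lay between 2.05 and 2.71 CPM with the empty vector and between 2.64 and 3.35 CPM with ADRA2A, and within them PECAM1 had means of 0.773 and 2.44 CPM and KDR of 1.23 and 0.482 CPM. The summed fibroblast markers, mostly LUM, lay between 1.90 and 2.23 CPM with the empty vector and between 1.04 and 1.603 CPM with ADRA2A. The part of these markers in the results was not tested.

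All 10 members passed the filter on low counts. PER2 rose, and PER1, CRY1, NR1D2 and CLOCK fell, while PER3, CRY2, NR1D1, DBP and TEF did not pass the test. Thus 1 member was higher and 4 were lower with ADRA2A at the threshold of 0.05 on the adjusted p (edgeR quasi-likelihood test, Benjamini-Hochberg over 14785 genes). Over all genes tested, 42.7% were called, 21.6% as higher and 21.1% as lower, so 5 called members of 10 is a share near the background. The median log2 fold change of the members was -0.10, against 0.00 for all genes tested, and their median absolute log2 fold change was 0.22, against 0.18. Without PER1, which was matched by identifier, 4 of 9 were called. No overlap between the groups was seen in 4 members, PER1, PER2, CRY1 and NR1D2, and in 39.2% of all genes tested.

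**Figure D1:**
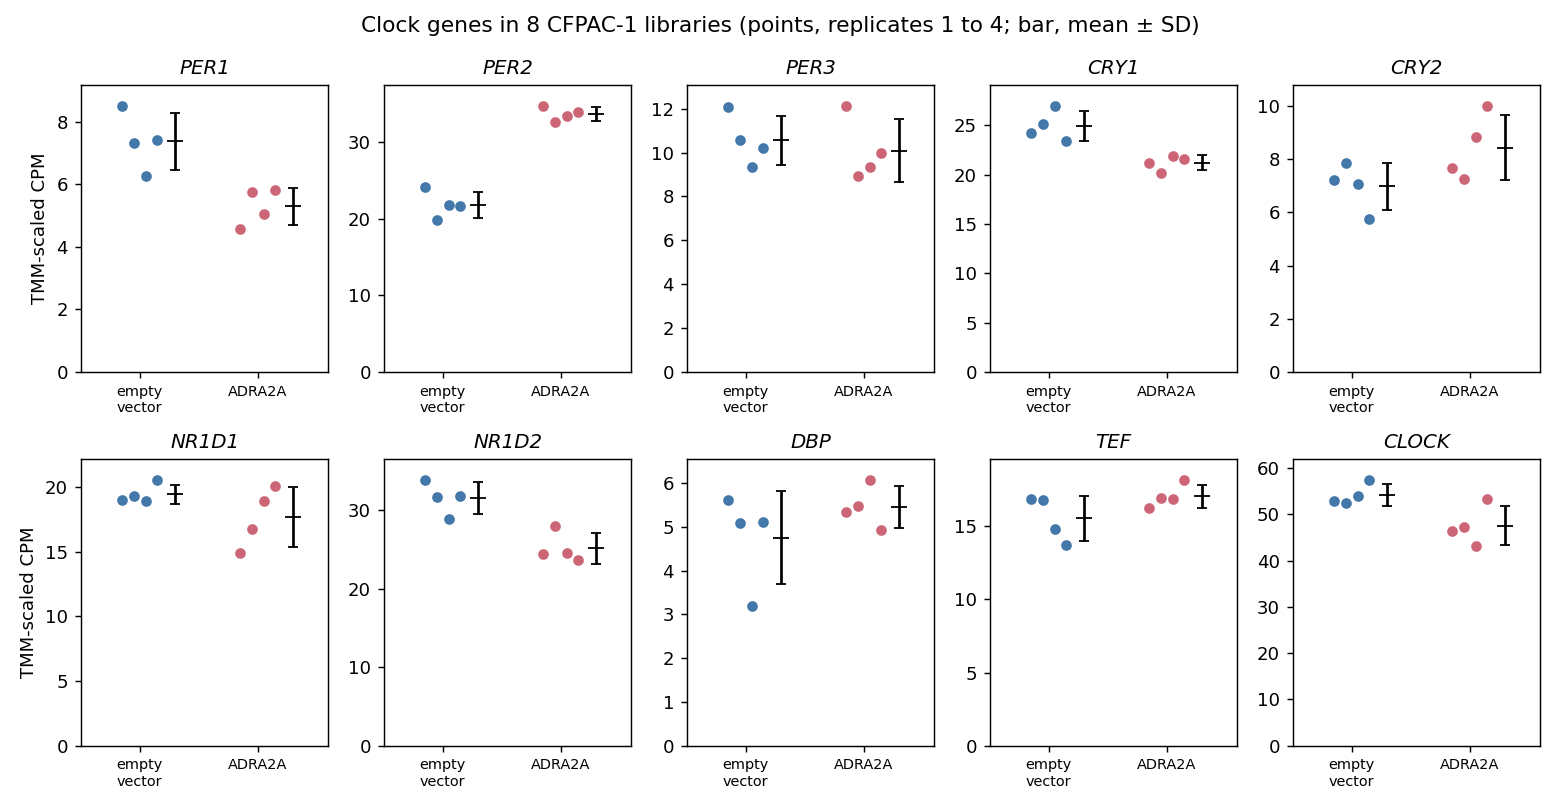
TMM-scaled CPM of the 10 clock genes in each library, with a linear axis from 0 in each panel; points are replicates 1 to 4 of each group and bars are mean ± SD (n = 4). The ADRA2A libraries lie above the empty-vector libraries for PER2 and below them for PER1, CRY1 and NR1D2, and the groups overlap for the other 6 genes.

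The PER genes encode the limiting subunits of the repressor complex, and they did not move together. PER2 (ENSG00000132326.12; chromosome 2, 238244044 to 238290102, minus strand, GRCh38) had 24.1, 19.9, 21.7 and 21.6 CPM in empty-vector replicates 1 to 4. In ADRA2A replicates 1 to 4 it had 34.7, 32.6, 33.4 and 34.0 CPM. Every ADRA2A library was above every empty-vector library, and PER2 was the most changed member. The mean was 21.8 ± 1.72 CPM with the empty vector and 33.7 ± 0.873 CPM with ADRA2A (SD, n = 4 each), 1.54-fold higher. That is a log2 fold change of 0.62 (SE 0.07; edgeR quasi-likelihood adjusted p = 2.18e-07), larger in size than that of 89.3% of the genes tested.

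PER1 (ENSG00000179094.16; chromosome 17, 8140472 to 8156506, minus strand), a gene known for fast induction by hormones and cyclic AMP, went the other way. The part of cyclic AMP in the changes of PER1 and PER2 was not tested. Empty-vector replicates 1 to 4 had 8.49, 7.33, 6.27 and 7.40 CPM, and the ADRA2A replicates had 4.57, 5.74, 5.04 and 5.82 CPM. The lowest empty-vector library was above the highest ADRA2A library. PER1 had a log2 fold change of -0.48 (SE 0.13; edgeR quasi-likelihood adjusted p = 0.00704), at between 66 and 145 counts per library.

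PER3 (ENSG00000049246.14; chromosome 1, 7784291 to 7845177, plus strand), which is dispensable for the core rhythm in mice, had overlapping groups. Its values were 12.1, 10.6, 9.35 and 10.2 CPM with the empty vector and 12.1, 8.91, 9.33 and 9.99 CPM with ADRA2A. Replicate 1 was the highest of each group. The 95% interval of the log2 fold change ran from -0.30 to 0.17 (edgeR adjusted p = 0.655).

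The promoters of PER2 and PER1, which moved in opposite directions, are shown from RefSeq on GRCh38.p14, from 250 bases before the start site to 50 after it. The lines run 5′ to 3′ on the gene's own strand, and capitals mark the clock motifs found. Searched on both strands were the E-box CACGTG, the D-box TTATGTAA or TTACGTAA, the ROR element core TAGGTCA and the cyclic AMP response element TGACGTCA.
PER2, chr2:238288561-238288860, minus strand: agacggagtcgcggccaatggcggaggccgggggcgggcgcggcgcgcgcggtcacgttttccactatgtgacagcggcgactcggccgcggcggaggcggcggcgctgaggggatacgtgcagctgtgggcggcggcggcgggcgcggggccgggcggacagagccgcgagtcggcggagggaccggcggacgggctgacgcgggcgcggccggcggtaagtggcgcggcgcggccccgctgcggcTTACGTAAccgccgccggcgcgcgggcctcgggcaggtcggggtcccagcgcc
PER1, chr17:8152355-8152654, minus strand: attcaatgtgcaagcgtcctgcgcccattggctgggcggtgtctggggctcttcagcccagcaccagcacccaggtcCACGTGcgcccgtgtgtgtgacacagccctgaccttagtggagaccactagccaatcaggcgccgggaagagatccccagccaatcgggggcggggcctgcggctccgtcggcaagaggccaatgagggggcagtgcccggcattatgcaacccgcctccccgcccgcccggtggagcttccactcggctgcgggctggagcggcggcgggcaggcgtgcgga
The PER2 window held 1 D-box, and the PER1 window held 1 E-box that begins at position -173 from the start site. Only these exact letters were searched, so variant E-boxes are not marked. The PER2 window holds the near match CACGTT, and the search does not show that it lacks an E-box. The D-box of PER2 spans the start site itself.

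The CRY genes encode the cryptochromes, the partners of PER that repress CLOCK and BMAL1 directly. CRY1 (ENSG00000008405.12; chromosome 12, 106991364 to 107093549, minus strand) had 24.2, 25.1, 27.0 and 23.4 CPM with the empty vector and 21.2, 20.2, 21.9 and 21.6 CPM with ADRA2A. The groups did not overlap, and the difference was small. The level was 0.851 of the empty-vector value, a log2 fold change of -0.23 (SE 0.07; edgeR quasi-likelihood adjusted p = 0.00935).

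CRY2 (ENSG00000121671.11; chromosome 11, 45847118 to 45883248, plus strand) had 7.20, 7.87, 7.09 and 5.76 CPM with the empty vector and 7.68, 7.26, 8.82 and 9.99 CPM with ADRA2A. ADRA2A replicates 3 and 4 were above all empty-vector libraries, and the other 2 were within their range. The fitted log2 fold change, 0.28 with an SE of 0.13, had an edgeR adjusted p of 0.0915. Without ADRA2A replicate 2 the adjusted p was 0.0495 (log2 fold change 0.34), and without ADRA2A replicate 4 it was 0.29 (0.19), and these were the lowest and the highest over the 15 alternative fits.

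NR1D1 and NR1D2 encode the REV-ERB receptors, which sense heme and repress BMAL1. NR1D2 (ENSG00000174738.13; chromosome 3, 23945286 to 23980617, plus strand) fell. It had 33.8, 31.7, 28.9 and 31.7 CPM in the empty-vector libraries and 24.4, 28.0, 24.5 and 23.6 CPM in the ADRA2A libraries. All 4 ADRA2A values lay under all empty-vector values, with ADRA2A replicate 2 the nearest to them. The mean was 31.6 ± 2.02 CPM with the empty vector and 25.1 ± 1.98 CPM with ADRA2A (SD, n = 4 each). This gave a log2 fold change of -0.33 (SE 0.07; edgeR quasi-likelihood adjusted p = 0.000712).

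NR1D1 (ENSG00000126368.6; chromosome 17, 40092793 to 40100589, minus strand) had 19.0, 19.3, 18.9 and 20.6 CPM with the empty vector and 14.9, 16.8, 18.9 and 20.1 CPM with ADRA2A. The empty-vector libraries lay close together, while the ADRA2A libraries spread from below them into their range. The coefficient of variation was 3.85% in the empty-vector group and 13.1% in the ADRA2A group. The 95% interval of the log2 fold change ran from -0.32 to 0.05 (edgeR adjusted p = 0.231).

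NR1D1 shares 473 bases of exon, 18.0% of its exon length, with THRA, the thyroid hormone receptor alpha gene on the opposite strand. THRA had between 1610 and 2798 counts per library, against 215 to 330 for NR1D1. THRA rose, with 111 ± 4.32 CPM in the empty-vector and 158 ± 3.62 CPM in the ADRA2A libraries (SD, n = 4 each; log2 fold change 0.50, edgeR quasi-likelihood adjusted p = 3.22e-09). The use of strand in counting is not given in the sources used here, so how far reads of THRA entered the NR1D1 value was not tested.

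The second annotated promoter of NR1D2 is shown because it was the member window with the most clock motifs, 2 E-boxes and 1 D-box that do not overlap each other. Capitals mark them as above, and the D-box reads TTACATAA, the reverse complement of TTATGTAA.
NR1D2, chr3:23945871-23946170, plus strand: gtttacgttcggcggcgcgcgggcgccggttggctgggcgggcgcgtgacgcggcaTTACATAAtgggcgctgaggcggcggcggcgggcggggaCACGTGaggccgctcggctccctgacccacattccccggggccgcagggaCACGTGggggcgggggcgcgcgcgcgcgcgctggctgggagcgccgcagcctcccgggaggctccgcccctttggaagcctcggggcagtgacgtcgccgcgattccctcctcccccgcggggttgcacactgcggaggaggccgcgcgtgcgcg
Across the 15 promoter windows of the 10 members, 4 held the exact E-box letters CACGTG (PER1, NR1D2 and both windows of TEF). Of the 35116 RefSeq windows of this length, 7.26% held them. A D-box lay in 3 member windows (PER2, PER3 and NR1D2), against 1.01% of all windows. The ROR element core was in 1 window, of CRY2, and the cyclic AMP response element in 0, each being in 1.85% of all windows. Variants of the cyclic AMP response element were not searched. The NR1D2 window shown holds the near match TGACGTCG, and the search does not show that the members lack such an element. PER2, which rose, NR1D2, which fell, and PER3, which did not pass the test, each had a D-box. A match is a description of the letters and not a measured binding site.

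DBP and TEF, the D-box factors of the output arm, did not pass the test. DBP (ENSG00000105516.10; chromosome 19, 48630030 to 48637379, minus strand) had 5.62, 5.09, 3.20 and 5.11 CPM with the empty vector and 5.33, 5.48, 6.07 and 4.93 CPM with ADRA2A. Empty-vector replicate 3 was the lowest library, and the rest overlapped. The 95% interval of the log2 fold change ran from -0.14 to 0.55 (edgeR adjusted p = 0.343), and without empty-vector replicate 3 the log2 fold change went from 0.20 to 0.05. At 55 to 106 counts per library DBP was the least counted member. DBP shares 661 bases of exon with SPHK2, a sphingosine kinase gene on the opposite strand, which had a log2 fold change of -0.22 (SE 0.09; edgeR quasi-likelihood adjusted p = 0.0671).

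TEF (ENSG00000167074.15; chromosome 22, 41367333 to 41399326, plus strand) had 16.9, 16.8, 14.8 and 13.7 CPM with the empty vector and 16.3, 16.9, 16.8 and 18.2 CPM with ADRA2A. Empty-vector replicates 1 and 2 lay within the ADRA2A range and replicates 3 and 4 below it. The 95% interval of the log2 fold change ran from -0.04 to 0.31 (edgeR adjusted p = 0.22). The 3 genes whose log2 CPM followed DBP most closely over the 8 libraries were WDR37 (Pearson's r = 0.96), OPLAH (0.94) and ZNF692 (0.94), out of 10160 genes with at least 10 CPM. The libraries share their depth and group, and with 8 points and so many genes such values are a description only.

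CLOCK (ENSG00000134852.15; chromosome 4, 55427903 to 55546909, minus strand), the activator, had 52.8, 52.4, 54.0 and 57.4 CPM with the empty vector. With ADRA2A it had 46.3, 47.2, 43.2 and 53.4 CPM. ADRA2A replicates 1 to 3 were below all empty-vector libraries, and replicate 4 was within their range. CLOCK had a log2 fold change of -0.19 (SE 0.06; edgeR quasi-likelihood adjusted p = 0.0145). The call was lost without empty-vector replicate 4 (edgeR adjusted p = 0.0596) and without ADRA2A replicate 3 (0.0647), while the lowest adjusted p among the 15 alternative fits was 0.00126.

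The 20 tested genes on each side of CLOCK on chromosome 4 spanned 20.4 Mb, the widest such stretch among the 10 members. Of these 40 genes 30 had a negative log2 fold change, and 18 were called lower and 4 higher, where 21.1% of all genes were called lower and 21.6% higher. Their median was -0.16, so that CLOCK differed from that median by -0.03. The part of this neighbourhood in the CLOCK value was not tested. For the other 4 called members the median of the 40 neighbours was 0.01 at PER2, -0.05 at PER1, 0.07 at CRY1 and -0.04 at NR1D2. The changes of PER2, PER1, CRY1 and NR1D2 relative to those medians were 0.61, -0.42, -0.30 and -0.29. Over all 10 members the neighbours' median lay between -0.16 at CLOCK and 0.12 at NR1D1. Uneven neighbours were not limited to CLOCK. Of the 40 neighbours, 29 had a positive log2 fold change at PER3 and at CRY2. At NR1D1 28 were positive, with 18 called higher and 6 lower. At TEF 27 and at DBP 26 were negative, with 14 called lower at each. At PER1, PER2, CRY1 and NR1D2 between 16 and 24 were positive. The calls were less even at some of these. At PER2 11 neighbours were called higher and 3 lower, and at NR1D2 4 higher and 12 lower. At PER1 9 were called higher and 9 lower, and at CRY1 14 higher and 8 lower. The part of these neighbours in the member values was not tested.

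**Figure D2:**
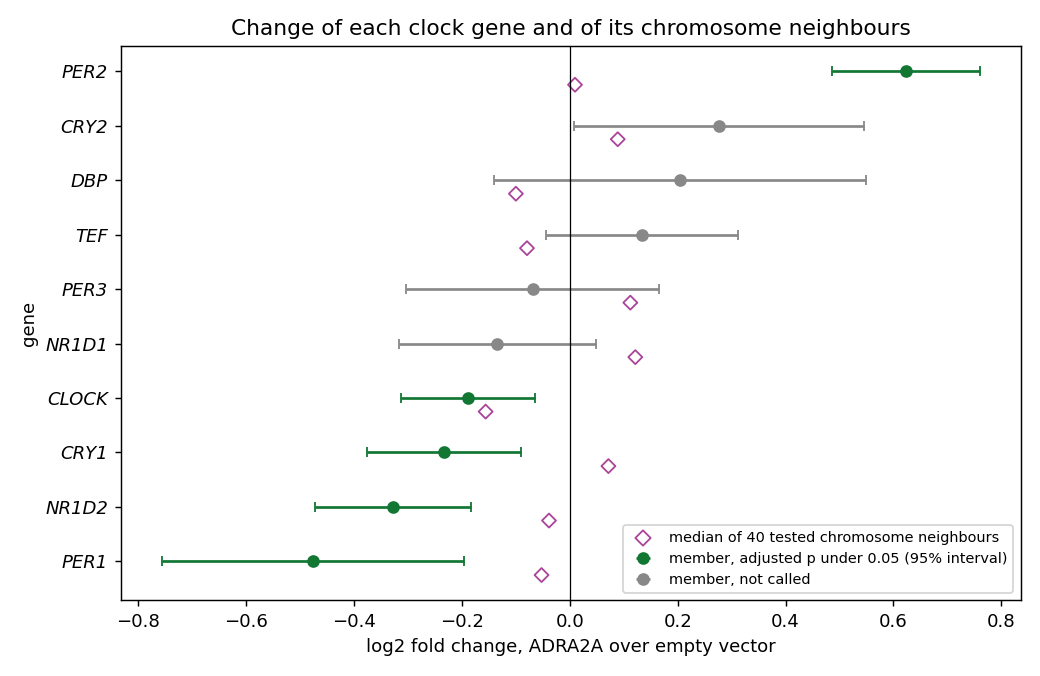
Log2 fold change of each clock gene, ADRA2A over empty vector, on the x axis, with its 95% interval; green points passed an adjusted p of 0.05 and grey points did not. Open diamonds are the median of the 40 tested neighbours on the chromosome, which lies at -0.16 beside CLOCK at -0.19 and at 0.01 beside PER2 at 0.62.

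Levels of different genes were compared as CPM per kb of annotated exon. In the empty-vector cells NR1D1 was highest, at 7.39 ± 0.285 CPM per kb (SD, n = 4; its exons overlap THRA as above), and its libraries did not overlap those of NR1D2, at 5.45 ± 0.348. NR1D2, CRY1 (5.21 ± 0.316) and CLOCK (4.69 ± 0.198) followed, and neighbours in that order overlapped. TEF and PER2 came next at 3.30 ± 0.33 and 3.08 ± 0.243 CPM per kb and overlapped each other. PER3, CRY2 and PER1 lay between 1.05 and 1.30 CPM per kb and overlapped in that order, and DBP was lowest at 0.733 ± 0.165. In the ADRA2A cells PER2 stood second in the order, at 4.75 ± 0.123 CPM per kb, above every library of CRY1 (4.44 ± 0.155) and overlapping NR1D2 (4.34 ± 0.342) and CLOCK (4.12 ± 0.369). PER1 stood last there, at 0.756 ± 0.0852, overlapping DBP at 0.841 ± 0.0727. With the length of the longest transcript PER2 came after CRY1 in the ADRA2A cells. By that length DBP stood last there, at 0.947 ± 0.0819 CPM per kb, overlapping PER1 at 1.13 ± 0.128. The annotated exon length of DBP, 6.49 kb, includes a transcript of 5.76 kb, and a shorter expressed transcript would raise its level per kb.

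**Figure D3:**
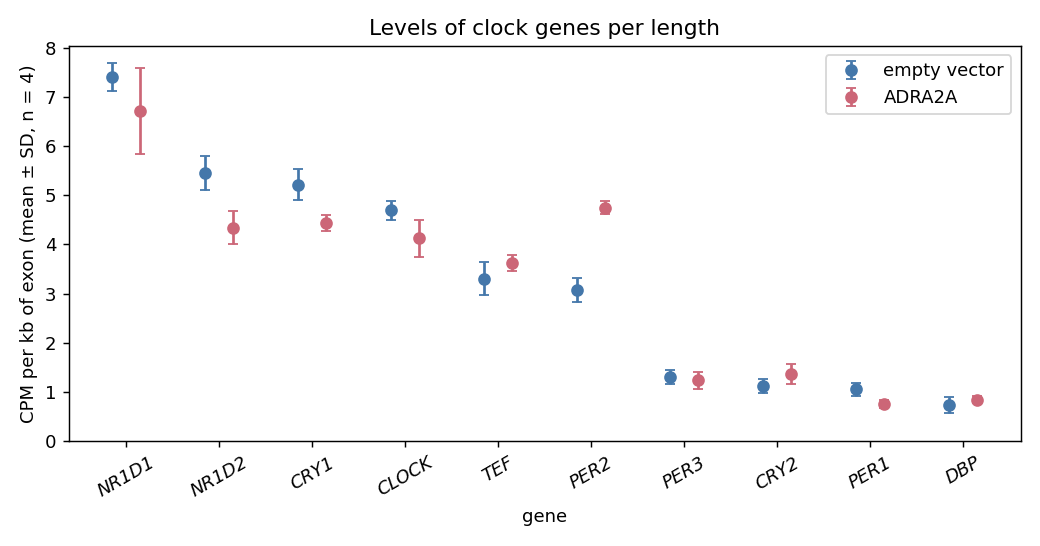
Level per length, in TMM-scaled CPM per kb of annotated exon (linear y axis), of the 10 clock genes on the x axis; points are means and bars SD over 4 libraries of each group. NR1D1 is highest in both groups, PER2 moves from 3.08 to 4.75, and PER1, PER3, CRY2 and DBP stay under 1.5.

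Ratios of paralogs within each library tested whether family members changed by different amounts. The 6 ratios compared 4 libraries with 4, where the exact two-sided permutation test cannot give a p below 0.0286, and p-values were adjusted over the 6. The ratio of PER1 to PER2 was 0.356, 0.373, 0.293 and 0.346 in the empty-vector libraries and 0.135, 0.179, 0.154 and 0.174 in the ADRA2A libraries. The groups were well apart, with a difference in log2 ratio of -1.09 (exact permutation p = 0.0286, adjusted p = 0.0429; n = 4 each). PER1 and PER2 had each separated the groups, in opposite directions. The lack of overlap of their ratio and its p-value followed from that and add no separate support. PER2 to PER3 rose by 0.69 on the log2 scale, and PER1 to PER3 had a difference of -0.40, each with the same exact permutation p and no overlap (higher or lower in 4 of 4 libraries). The groups were only just apart for PER1 to PER3, with empty-vector replicate 3 at 0.675 and ADRA2A replicate 2 at 0.649. For PER2 to PER3 the nearest were empty-vector replicate 3 at 2.31 and ADRA2A replicate 1 at 2.84. For PER1 to PER3 the difference was -0.24 without ADRA2A replicate 1, the library with the lowest ratio. The ratios of PER genes are not independent results, since any of them follows from the others.

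The cryptochrome ratio moved as well. CRY1 to CRY2 was 3.33, 3.16, 3.75 and 4.00 in the empty-vector libraries and 2.73, 2.75, 2.46 and 2.15 in the ADRA2A libraries. The 4 ADRA2A ratios were all lower, with a difference in log2 ratio of -0.50 (exact permutation p = 0.0286, adjusted p = 0.0429; n = 4 each). That adjusted p depends on the ratios of PER genes, which are not independent and also had the smallest p possible. Fewer ratios at that p would have given a higher adjusted p. NR1D1 to NR1D2 and DBP to TEF overlapped between the groups. Their differences in log2 ratio were 0.18 (exact permutation p = 0.286, adjusted p = 0.343) and 0.08 (exact permutation p = 0.714, adjusted p = 0.714), which does not show that these paralogs acted alike. Of all single genes tested, 39.2% had groups that did not overlap. Ratios of other gene pairs were not computed, so whether paralog ratios separated the groups more often than those was not tested.

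**Figure D4:**
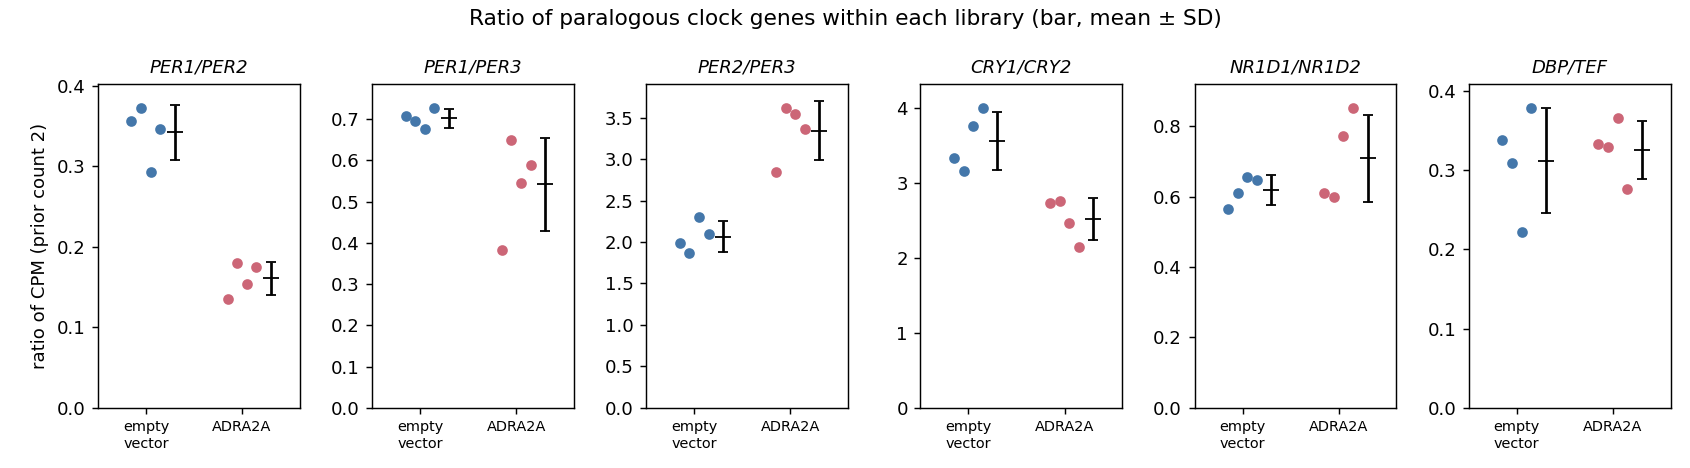
Ratio of the CPM of paralogous clock genes (prior count 2, linear y axis from 0) within each library; points are replicates 1 to 4 of each group and bars mean ± SD. The groups do not overlap for the 3 ratios of PER genes, which are not independent, and for CRY1/CRY2, and they overlap for NR1D1/NR1D2 and DBP/TEF. Ratios of other gene pairs were not computed.

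The other genes of the pathway were read from 3 lists. In the list of the positive arm and secondary loop 10 of 11 genes were tested, and 3 rose and 4 fell (70% called, against 42.7% of all genes). The median of their log2 fold changes was -0.13. The calls numbered 6 of 10 with DESeq2, 8 of 10 with upper quartile factors and 6 of 11 without the filter. With a filter at a mean of 50 counts they were 5 of 7, and with 1 library left out 6 to 8. The list was chosen with earlier results of these data known, so its share of calls is a description only.

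HLF, a PAR bZIP factor like DBP and TEF, had 4.45, 4.75, 3.54 and 4.52 CPM with the empty vector and 7.54, 8.91, 7.62 and 9.04 CPM with ADRA2A. It rose without overlap (log2 fold change 0.94, SE 0.13; edgeR quasi-likelihood adjusted p = 1.06e-05). The repressor genes BHLHE40 (DEC1) and BHLHE41 (DEC2), which compete for E-boxes, moved in opposite directions. BHLHE40 rose from 79.3 ± 3.01 to 97.2 ± 5.07 CPM and BHLHE41 fell from 3.76 ± 0.321 to 1.39 ± 0.558 CPM (SD, n = 4 each), with log2 fold changes of 0.30 and -1.42 (edgeR adjusted p = 3.29e-05 and 7.58e-05). BHLHE41 had 15 to 72 counts per library, and its log2 fold change lay between -1.74 and -1.29 over 14 alternative fits. CIART, a further repressor of CLOCK and BMAL1, fell, from 3.67 ± 0.356 CPM to 2.05 ± 0.54 CPM (SD, n = 4 each; edgeR adjusted p = 0.00342). It had 22 to 70 counts per library.

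Among the activators, NPAS2, the paralog that can replace CLOCK, rose from 49.0 ± 2.89 to 58.7 ± 2.29 CPM (SD, n = 4 each; edgeR adjusted p = 0.0004). BMAL1, listed as ARNTL, had 7.03 ± 0.171 and 8.14 ± 0.636 CPM (SD, n = 4 each; log2 fold change 0.21, edgeR adjusted p = 0.128). Its paralog BMAL2, listed as ARNTL2, fell from 105 ± 3.12 to 85.2 ± 2.73 CPM (SD, n = 4 each; edgeR adjusted p = 7.12e-06). RORA was counted 6 to 19 times per library, and its log2 fold change of -0.87 had an edgeR adjusted p of 0.0402. With DESeq2 the adjusted p of RORA was 0.106, and it lay above 0.05 in 7 of the 8 fits that each left out 1 library, with a lowest of 0.0367 and a highest of 0.133 over the alternative fits. NFIL3, which represses at D-boxes, had a log2 fold change of -0.15 (edgeR adjusted p = 0.155) and TIMELESS of -0.11 (0.0566). TIMELESS passed the threshold in 5 of the 15 alternative fits. Its edgeR adjusted p was lowest without ADRA2A replicate 2 (0.0274) and highest without ADRA2A replicate 4 (0.178). RORB had at most 2 counts in a library and was not tested.

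Of 13 genes for clock kinases, ubiquitin ligases and related enzymes, 12 were tested, and 3 rose and 2 fell, at a median of 0.00 (log2). That is 41.7% called, near the 42.7% of all genes. The smallest p-values belonged to CSNK2A1 (-0.33), PRKAA1 (0.37), CSNK1E (-0.30) and FBXW11 (0.24), given as log2 fold changes, with edgeR adjusted p-values of 2.14e-07, 8.08e-07, 6.25e-05 and 9.73e-05. CSNK2A1 encodes the catalytic subunit of casein kinase 2, and PRKAA1 that of AMP-activated kinase, which phosphorylates CRY proteins. CSNK1E encodes casein kinase 1 epsilon, which marks PER for destruction, and FBXW11 a ubiquitin ligase subunit that then recognizes PER. The third gene that rose was GSK3B, a kinase of several clock proteins, named here after its values were seen (log2 fold change 0.12, edgeR adjusted p = 0.0271). Its call was lost in 5 of the 15 alternative fits, with upper quartile factors (edgeR adjusted p = 0.0505) and without empty-vector replicate 1 (0.0632) or 2 (0.0597) or ADRA2A replicate 1 (0.103) or 4 (0.0634). The lowest adjusted p over those fits was 0.00654.

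Of 14 clock-controlled outputs 11 were tested, and 1 rose and 4 fell, with a median of -0.01. That is 45.5% called, also near the share of all genes. TSC22D3 rose (log2 fold change 0.31), and NAMPT (-0.20), WEE1 (-0.24) and GYS1 (-0.19) fell, at edgeR adjusted p-values of 2.62e-05, 0.000197, 0.00528 and 0.0181. NAMPT is an enzyme of NAD salvage, WEE1 a kinase that holds back mitosis, GYS1 glycogen synthase and TSC22D3 a gene induced by glucocorticoids. The fourth gene that fell was MT2A, a metallothionein, named here after its values were seen (log2 fold change -0.09, edgeR adjusted p = 0.0475). Its call was lost in 7 of the 15 alternative fits, without the filter (edgeR adjusted p = 0.0853) and without empty-vector replicate 3 (0.138) or 4 (0.104) or any 1 of the 4 ADRA2A libraries (0.0501 to 0.167), and the lowest adjusted p was 0.0211. Without ADRA2A replicate 2 the outputs called numbered 3. GYS1 had an adjusted p of 0.0573 without that library and of 0.0847 without empty-vector replicate 3.

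**Figure D5:**
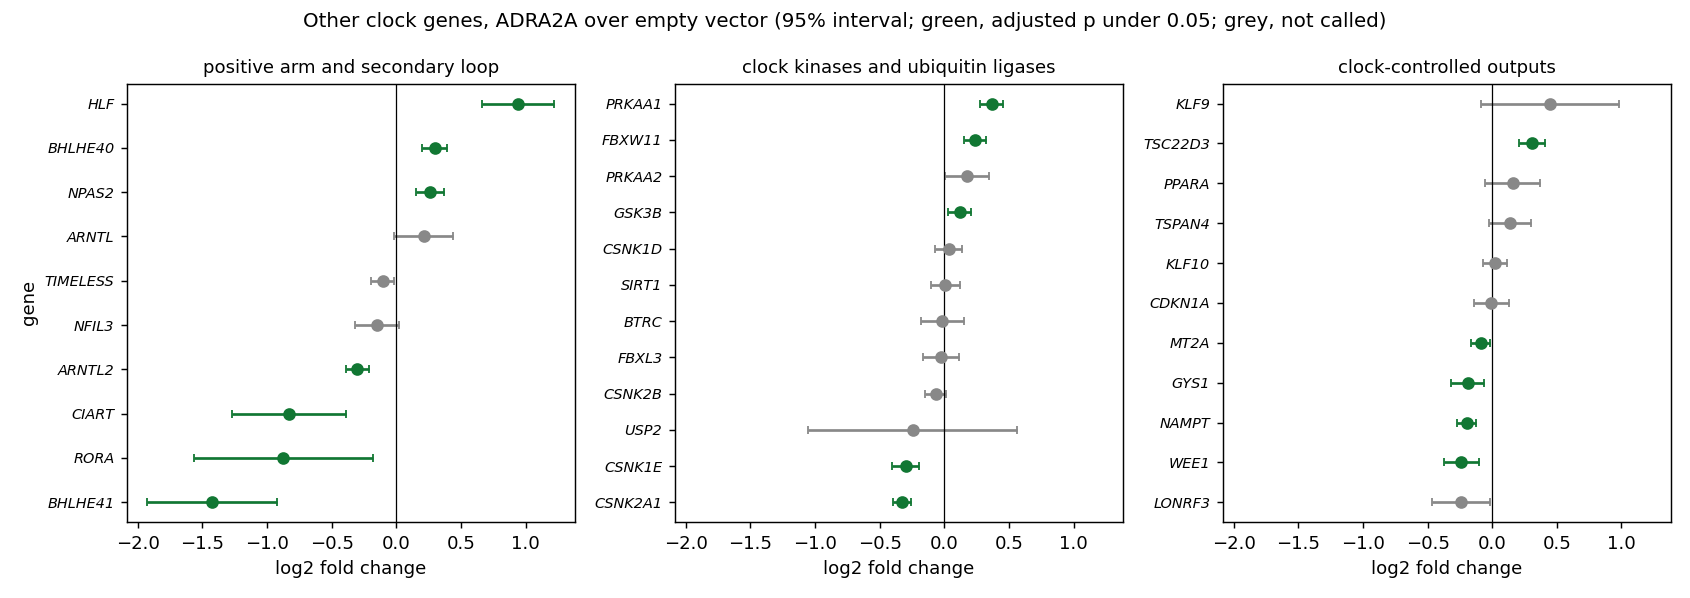
Log2 fold change, ADRA2A over empty vector (x axis, with 95% interval), of the tested genes of the 3 further clock lists; green points passed an adjusted p of 0.05 and grey points did not. HLF at 0.94 and BHLHE41 at -1.42 are the highest and the lowest, and the kinase and output lists lie between -0.33 and 0.45.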

How the data were processed

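Bulk RNA sequencing of 8 CFPAC-1 samples was deposited as 1 table of estimated counts per gene, which the authors made with RSEM and did not scale between samples. Per the submitters' processing notes, cutadapt, STAR, RSEM and DESeq2 were used on build hg38. Versions, annotation release and strand setting are not given in the sources used here. All columns matched a sample title, leaving 0 without a sample. Estimated counts were rounded. Genes were filtered with filterByExpr (14785 of 58870 kept), scaled by TMM and tested with edgeR 4.0.16 (quasi-likelihood test, group as the only term, Benjamini-Hochberg threshold 0.05). The procedure was tested on simulated data. Positions and lengths are from GENCODE release 44 (GRCh38), promoters from RefSeq. The common biological coefficient of variation was 4.96%. Log2 ratios used a prior count of 2. Alternatives were DESeq2 1.42.0, limma 3.58.1 voom, RLE and upper quartile factors, 2 other filters, a replicate block and leaving out each library. Named were all members, the tested genes of the first further clock list, the 4 smallest p-values of the other lists, genes overlapping a member and the 3 most like DBP. A further gene planned for the first list is not reported here. Protein identity of paralogs was planned and is not analysed here. Of the overlapping genes, those with few shared bases or low counts are not named. Members and lists were chosen with earlier results of these data known.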

Additional observations from a re-analysis of the deposited data

Results flagged for a closer look

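Among 40 groups of 4 libraries checked (the members and the tested genes of the positive arm and secondary loop), 1 held a library far from the other 3. ADRA2A replicate 2 had 7.19 CPM of BMAL1 (ARNTL), while the other ADRA2A libraries lay between 8.35 and 8.58 CPM. The gap was 0.833 of the group's range, above Dixon's limit of 0.829. Chance flags about 1 in 20 such groups. Without that library the log2 fold change of BMAL1 was 0.27.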

How the results depend on the processing

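The number of members called was 5 in the fits with DESeq2, limma voom, RLE or upper quartile factors, either other filter or the replicate block, and 4 to 6 when 1 library was left out. No called member changed direction in any of these 15 fits. Over all genes the calls numbered 6314, with 5703 to 6042 when 1 library was left out, 5823 with DESeq2 and 6400 with the replicate block. The share of higher calls was 46.4% with upper quartile factors, against 50.6%. The labels link same-numbered samples by number only, and correlations of their deviations lay between -0.04 and 0.07. Such values do not settle whether these samples were prepared together. With 4 pairs a sign-flip test of the paralog ratios cannot give a p below 0.125. The block left the 5 member calls in place. The clock-controlled outputs called numbered 3 to 6 when 1 library was left out, against 5, the lowest without ADRA2A replicate 2. With 10 neighbours on each side the median changed sign at PER1 (0.0537) and PER2 (-0.0199), both near 0. DBP, CRY2 and PER1 had the fewest counts of the members on average, 55 to 158 per library, and so the largest relative counting error.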
